A study of Mus musculus with 2 samples.

Results

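Smooth muscle contractile genes were followed in nuclei of the mouse fetal lung. The group was set by name and held 10 of the 32285 gene features counted in the data: Acta2, Actg2, Tagln, Cnn1, Lmod1, Myh11, Myl9, Mylk, Des and Myocd. All 10 had at least 1 UMI (a counted RNA molecule) in the nuclei kept from each library. RNA and open chromatin had been read together in single nuclei of lungs taken from wild-type fetuses on gestation day 18. The PBS library pooled 9 fetuses of a dam sensitized with alum alone and then given intranasal PBS. The OVA library pooled 8 fetuses of a dam sensitized with alum and 100 µg of ovalbumin and then given 500 µg of ovalbumin intranasally. Dams were 6 to 8 weeks old at sensitization, were mated to untreated males later, and took the intranasal doses over gestation days 4 to 17. With 1 library and 1 dam per group there was no replicate check. Every interval below is a 95% interval for counting error only, so that a difference between PBS and OVA is one between 2 libraries.

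Smooth muscle shortens when myosin filaments pull on actin filaments, after the myosin light chain kinase has phosphorylated the regulatory light chain. The actins, the heavy and light chains, the kinase and the proteins that hold the filaments together are made from genes that share control by serum response factor, which binds a DNA motif called the CArG box and is helped by myocardin. In the late fetal lung these genes are known from airway and vascular smooth muscle, from myofibroblasts at the tips of future septa and, at lower levels, from pericytes.

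Stromal nuclei were present although the sort had named group 2 innate lymphoid cells, CD45+ immune cells and EpCAM+ epithelial cells. Nuclei were gated by UMIs of at least 2 marker genes, none of them a contractile gene, with no other gate having as many. The Myofibroblast gate (Hhip, Wnt5a, Fgf18, Aspn, Lgr6, Pdgfra) held 235 PBS and 255 OVA nuclei. The Pericyte gate (Pdgfrb, Cspg4, Notch3, Trpc6, Kcnj8, Abcc9) held 102 and 144, and the Alveolar fibroblast gate (Tcf21, Wnt2, Col13a1, Meox2, Mfap4, Fgf10) held 541 and 909. The Immune gate held 1163 and 2079 nuclei and served as the background, since immune cells should lack these genes. A gate is a range of a score and not a type: 55.3% of PBS and 47.8% of OVA Myofibroblast nuclei had exactly 2 markers, as had 43.1% and 23.6% of Pericyte and 55.8% and 34.3% of Alveolar fibroblast nuclei.

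The share of nuclei with each marker was read in each gate, as a description only, since the same markers had set the gates. Hhip was found in 89.4% of PBS and 91.0% of OVA Myofibroblast nuclei, and Pdgfra in 70.2% and 79.6%. Aspn went against its gate: it was found in 7.66% and 5.88% of Myofibroblast nuclei and in 21.6% and 33.3% of Pericyte nuclei. Mfap4, a marker of the Alveolar fibroblast gate, was found in 41.7% and 54.1% of Myofibroblast nuclei, and Hhip in 22.4% and 36.1% of Alveolar fibroblast nuclei. Pdgfrb was found in 84.3% and 84.7% of Pericyte nuclei, and the least found of the 6 markers of that gate in 6.86% and 8.33%. Whether the Pericyte gate also held vascular smooth muscle was not tested. The 6 immune markers were each found in at most 6.25% of the nuclei of any of these 3 stromal gates.

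The libraries differed in depth and in the share of mitochondrial RNA. Of 8019 PBS and 5960 OVA barcodes, 4279 and 4996 were kept, and 54 barcode sequences occurred in both libraries. The median kept nucleus held 1116 (PBS) and 1820 (OVA) UMIs, and mitochondrial genes took 37.3% and 27.7% of the UMIs. In the Myofibroblast gate the median was 1155 and 1702 UMIs, in the Pericyte gate 1098 and 1926, in the Alveolar fibroblast gate 1137 and 2048 and in the Immune gate 1433 and 1874. Mitochondrial genes took 47.3% and 38.3% of the UMIs of Immune nuclei but 27.7% and 18.2% of those of Myofibroblast nuclei. Levels are given as CPM, the UMIs of a gene per 1000000 gene UMIs of all nuclei of a gate in a library.

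Among the larger gates, the CPM of contractile RNA was highest in the Myofibroblast and Pericyte gates. Mylk was the exception, and was highest in the Alveolar fibroblast gate in both libraries. Among the 5 gates with at least 50 nuclei in each library, 4 PBS and 5 OVA members were highest in the Myofibroblast gate, 5 and 4 in the Pericyte gate, and 1 and 1, Mylk each time, in the Alveolar fibroblast gate. The highest gate was beyond counting error of the second for Acta2, Des, Mylk and Myocd only in the PBS library. In the OVA library it was so for Acta2, Myh11, Actg2, Mylk, Myocd and Myl9 only. No member was highest in the Epithelium or Immune gate. Other nuclei still held many of the UMIs. Of the Acta2 UMIs, Myofibroblast nuclei held 17.9% (PBS) and 18.15% (OVA) and Pericyte nuclei 17.4% and 16.9%. Alveolar fibroblast nuclei held 13.4% and 22.6% of them, and ungated nuclei 31.6% and 24.9%. Of the Myh11 UMIs, Myofibroblast nuclei held 34.8% and 47.1% and Pericyte nuclei 18.8% and 14.8%. Summed over the 10 genes, the level in PBS Myofibroblast nuclei was 2188 CPM (2033 to 2351) and that in OVA Myofibroblast nuclei 2565 (2429 to 2707), 25.6 and 48.6 times that of Immune nuclei. These ratios over the Immune gate, 4.68 and 5.604 on the log2 scale, were 3.09 and 4.27 where only nuclei with at most 20% mitochondrial UMIs were taken and 3.90 and 4.63 where doublet calls were kept. Without Mylk, the sum was 1253 and 1436 CPM in Myofibroblast nuclei, 1450 and 1059 in Pericyte nuclei and 172.5 and 153.5 in Alveolar fibroblast nuclei. Mylk alone gave 42.7% and 44.0% of the member UMIs of the Myofibroblast gate but 88.8% and 92.05% of those of the Alveolar fibroblast gate.

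**Figure D1:**
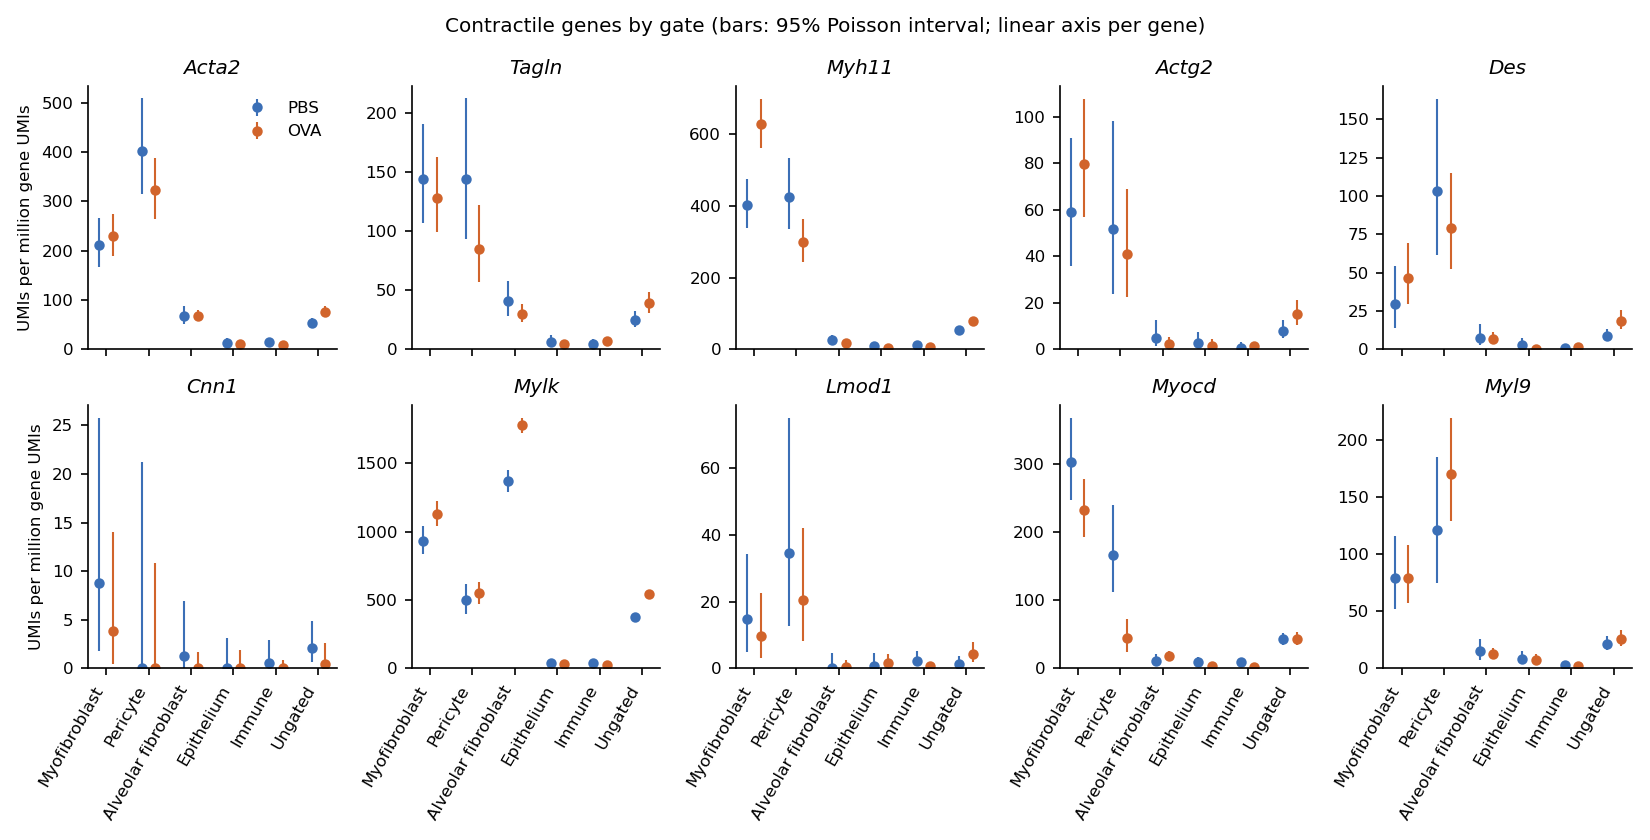
Level of each of the 10 genes (CPM, linear axis per gene) in 5 gates and in ungated nuclei, in the PBS and OVA libraries, with bars for 95% Poisson intervals. Of the genes, 9 stand highest in the Myofibroblast or Pericyte gate, while Mylk stands highest in the Alveolar fibroblast gate at 1369 (PBS) and 1777 (OVA).

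Acta2 encodes smooth muscle alpha-actin and lies on the minus strand at chr19:34241090-34255590 (mm10, as are all coordinates here). It stood at 403 CPM (314 to 509) in PBS Pericyte nuclei and at 322 (264 to 388) in OVA Pericyte nuclei. In Myofibroblast nuclei it stood at 212 (166 to 267) and 229 (189 to 274). The Pericyte gate was above the Myofibroblast gate in both libraries, by log2 ratios of 0.93 (0.43 to 1.42) and 0.49 (0.11 to 0.88). Alveolar fibroblast nuclei held 67.0 and 67.2 CPM and Immune nuclei 15.2 and 9.20.

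Actg2, the gamma-actin of visceral smooth muscle, lies at chr6:83512905-83536265 on the minus strand. It stood at 58.8 CPM (35.9 to 90.8) and 79.4 (57.0 to 108) in PBS and OVA Myofibroblast nuclei, and at 51.8 and 41.0 in Pericyte nuclei. The Myofibroblast gate was above the Pericyte gate beyond counting error in the OVA library only (log2 0.96, 0.05 to 1.95), and the PBS ratio was 0.18 with an interval that held equality. In Alveolar fibroblast nuclei it was down to 4 PBS and 5 OVA UMIs, and in Immune nuclei to 1 and 6. The coding sequences of actin genes are near-identical, and how reads shared between them had been counted is not given in the sources used here.

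Tagln encodes transgelin, a small protein that binds actin filaments, and lies at chr9:45929619-45936058 on the minus strand. Its levels in Myofibroblast and Pericyte nuclei of the PBS library were within counting error, at 144 CPM each (107 to 190 and 93.1 to 212). In the OVA library they were 128 (98.9 to 163) and 84.9 (56.8 to 122), a log2 ratio of 0.59 (-0.06 to 1.28), which held equality. Cnn1, the actin-binding protein calponin at chr9:22099216-22109630 (plus strand), was close to undetectable in every gate. It gave 3 PBS and 2 OVA UMIs in Myofibroblast nuclei and none in Pericyte nuclei, where 3 counts would be 17.3 and 8.78 CPM. Lmod1, or leiomodin, which starts new actin filaments and lies at chr1:135324807-135368065 (plus strand), was also low, with 6 PBS and 7 OVA UMIs in Pericyte nuclei (34.5 and 20.5 CPM) and 5 in each library in Myofibroblast nuclei (14.7 and 9.69). The Cnn1 and Lmod1 counts were too few to order the 2 gates.

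Myh11, the smooth muscle myosin heavy chain, lies at chr16:14194535-14291372 on the minus strand. Myofibroblast nuclei held 403 CPM (338 to 476) among PBS and 628 (561 to 700) among OVA nuclei. Pericyte nuclei held 426 (334 to 534) and 298.5 (243 to 362). The 2 gates were within counting error in the PBS library (log2 Myofibroblast over Pericyte -0.08, -0.50 to 0.35) and apart in the OVA library (1.07, 0.75 to 1.41). Alveolar fibroblast nuclei held 24.8 and 16.0 CPM, and the log2 ratio of Myofibroblast over Alveolar fibroblast was 4.02 (3.34 to 4.78) and 5.30 (4.79 to 5.84).

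Myl9, the regulatory light chain that the kinase phosphorylates, lies at chr2:156775420-156781658 on the plus strand. It stood at 121 CPM (74.8 to 185) and 170 (129 to 219) in PBS and OVA Pericyte nuclei, and at 79.4 in Myofibroblast nuclei of both libraries. The log2 ratio of Pericyte over Myofibroblast was 0.61 (-0.29 to 1.48) and 1.09 (0.49 to 1.71), apart in the OVA library and within counting error in the PBS library. Des encodes desmin, the intermediate filament protein of muscle, at chr1:75360329-75368579 on the plus strand. It too was highest in Pericyte nuclei, at 103.5 CPM (61.4 to 164) and 79.0 (52.1 to 115) against 29.4 and 46.5 in Myofibroblast nuclei. Its gates were apart in the PBS library (log2 Pericyte over Myofibroblast 1.82, 0.62 to 3.09), and the OVA interval held equality (0.76, -0.08 to 1.62).

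Myocd encodes myocardin, the cofactor of serum response factor, at chr11:65176561-65269989 on the minus strand. It was highest in Myofibroblast nuclei of both libraries, at 303 CPM (247 to 367) and 232.5 (193 to 278). Pericyte nuclei held 167 (112 to 240) and 43.9 (24.6 to 72.4), and the log2 ratio of Myofibroblast over Pericyte was 0.86 (0.25 to 1.51) for PBS and 2.40 (1.63 to 3.29) for OVA. Alveolar fibroblast nuclei held 11.2 and 18.3 CPM and Immune nuclei 9.42 and 2.47. In the PBS library the Alveolar fibroblast level was within counting error of the Immune level (log2 0.25, -1.09 to 1.48).

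Mylk, on the plus strand at chr16:34745210-35002420, encodes the long and short myosin light chain kinases and, from its end, the kinase-free protein telokin. Its order of gates was unlike that of the other 9 genes. PBS and OVA Alveolar fibroblast nuclei held 1369 CPM (1289 to 1452) and 1777 (1722 to 1834), Myofibroblast nuclei 935 (835 to 1044) and 1130 (1040 to 1225), and Pericyte nuclei 500.4 (401 to 617) and 550.1 (474 to 635). All neighbours in this order were apart in both libraries, with log2 Alveolar fibroblast over Myofibroblast ratios of 0.55 (0.37 to 0.73) and 0.65 (0.53 to 0.78). Immune nuclei held 38.2 and 23.6 CPM. At least 1 Mylk UMI was found in 73.9% and 91.9% of Alveolar fibroblast nuclei, 63.8% and 78.0% of Myofibroblast nuclei and 4.04% and 3.42% of Immune nuclei. Each nucleus was then thinned to 500 UMIs of nuclear genes, and shallower ones were left out. The shares were 58.5% (53.6 to 63.2) and 63.7% (60.4 to 66.9) of Alveolar fibroblast nuclei. They were 51.6% (44.2 to 59.0) and 51.8% (45.4 to 58.2) of Myofibroblast and 2.76% and 1.92% of Immune nuclei. Antisense genes lie within Mylk, and genes on the other strand also overlap Des and Tagln. Whether the counting used strand is not given in the sources used here.

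The number of members past a fixed size was set beside the share of all genes past it. A gene was called when it had at least 20 UMIs over both gates, differed at least 2-fold and had an interval that left out equality. Over the Immune gate in the PBS library, 7 of 7 members with enough UMIs were higher in Myofibroblast nuclei, where 23.3% of all genes were, and 6 of 6 in Pericyte nuclei, where 17.8% were. In the OVA library the counts were 8 of 8 (23.2% of all genes) and 8 of 8 (21.9%). Alveolar fibroblast nuclei were also higher than Immune nuclei, in 4 of 5 PBS (24.9% of all genes) and 7 of 7 OVA members (26.3%). The median log2 ratio of the members there was 2.14 and 2.61. The median log2 ratio of the members was 4.94 and 5.48 in Myofibroblast nuclei, against 0.26 over all genes tested in each library. Members with few Immune UMIs reached the minimum through the gate where they were high and so had to differ, and these counts are a description.

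The closer comparison was with Alveolar fibroblast nuclei. There 6 of 7 PBS members (10.5% of all genes) and 7 of 8 OVA members (9.57%) were higher in Myofibroblast nuclei, and 6 of 7 (10.1%) and 6 of 7 (11.8%) were higher in Pericyte nuclei. Mylk was the exception in each of the 4, and it was lower in Pericyte than in Alveolar fibroblast nuclei by log2 -1.45 (-1.78 to -1.14) and -1.69 (-1.91 to -1.48). The median log2 ratio of Myofibroblast over Alveolar fibroblast was 2.41 and 2.72 for the members and 0.03 and 0.07 for all genes. Cnn1 and Lmod1 had too few UMIs in all of these comparisons, and Des and Actg2 in some. Here too, members with few Alveolar fibroblast UMIs reached the minimum through the gate where they were high. Actg2 did so in Myofibroblast nuclei, with 20 against 4 PBS and 41 against 5 OVA UMIs. These counts are likewise a description.

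A few nuclei had a higher level still. A gate of Ctnna3, Ntrk3, Kcnma1, Kcnmb1 and Pln held 14 PBS and 11 OVA nuclei, of which 92.9% and 100% had Ctnna3 and all had Ntrk3. Kcnmb1 and Pln, which would name smooth muscle, were at 0 in both libraries, so the gate is called by its leading genes. Mitochondrial genes took 39.95% of PBS and 26.2% of OVA UMIs there. Acta2 stood there at 1273 CPM (839 to 1853) and 1539 (1113 to 2072), 6.01 and 6.73 times its level in Myofibroblast nuclei. Its 27 PBS UMIs came from 10 of 14 nuclei and its 43 OVA UMIs from 10 of 11, and so from most of the nuclei. Tagln stood at 613 (326 to 1048) and 823 (522 to 1235) CPM.

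The other members were not all raised with them in these nuclei. Mylk was below its level in Myofibroblast nuclei, by log2 -1.73 (-3.18 to -0.59) with 6 PBS UMIs and -1.40 (-2.36 to -0.58) with 12 OVA UMIs. Myl9 was above it in the OVA library (log2 2.76, 1.80 to 3.64) and within counting error in the PBS library (0.83, -1.53 to 2.53). Des gave 5 PBS UMIs (log2 3.00, 1.10 to 4.69) and 0 OVA UMIs. Myh11 and Myocd were within counting error of Myofibroblast nuclei in both libraries, and Cnn1 was at 0. Notch3 was found in 21.4% and 72.7% of these nuclei and Pdgfrb in 7.14% and 0%. When all nuclei with UMIs of both Ctnna3 and Ntrk3 were taken, whatever their gate, there were 27 and 31, with Acta2 at 695.5 CPM (536 to 888) and 1081 (881 to 1314).

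Epithelium nuclei were near the Immune level. The sum of the 10 genes in Epithelium nuclei (334 PBS and 451 OVA) was 91.0 and 59.9 CPM, against 85.3 and 52.7 in Immune nuclei, with log2 ratios of 0.09 (-0.27 to 0.45) and 0.18 (-0.15 to 0.51). The 13 PBS and 28 OVA Endothelium nuclei were above it, at 179 and 364 CPM, log2 ratios of 1.07 (0.32 to 1.75) and 2.79 (2.37 to 3.19). Without Mylk the Endothelium ratio was 0.41 (-0.94 to 1.52) and 1.18 (0.19 to 2.04), from 7 and 12 UMIs. Ungated nuclei, 1848 and 1087, held 592 and 840 CPM of the members, 6.94 and 15.9 times the Immune level, so that part of the contractile RNA lay in nuclei that no gate named. Adventitial fibroblast nuclei (19 and 21) held 925 and 1278 CPM, of which Mylk gave 78.6% and 47.8%.

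The share of nuclei with 2 or more contractile genes was also taken. Each nucleus was thinned to 500 UMIs of nuclear genes, and shallower ones were left out (51 PBS and 10 OVA Myofibroblast, 29 and 10 Pericyte, 122 and 25 Alveolar fibroblast and 294 and 204 Immune nuclei). At that depth 34.2% (27.4 to 41.6) of PBS and 31.8% (26.0 to 38.1) of OVA Myofibroblast nuclei held 2 or more of the 10 genes. The share was 28.8% (18.8 to 40.6) and 16.4% (10.6 to 23.8) of Pericyte nuclei and 5.49% and 5.32% of Alveolar fibroblast nuclei. It was 0.460% (0.126 to 1.17) and 0.16% (0.033 to 0.467) of Immune nuclei. Before thinning the shares were 54.0% and 65.9%, 45.1% and 46.5%, 13.3% and 23.6%, and 1.03% and 0.673%. Such shares rise with the share of each gene by itself, and Mylk alone was found in 51.6% and 51.8% of thinned Myofibroblast nuclei. Whether the genes met in nuclei more often than their separate shares give was not tested.

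Without Mylk, finding several members in 1 nucleus was about as rare in the Alveolar fibroblast as in the Immune gate. Of the other 9 genes, 2 or more were found in 0.477% and 0.113% of thinned Alveolar fibroblast nuclei and 0.345% and 0.107% of Immune nuclei, with overlapping intervals. The gates were apart for 1 or more of the 9 genes, found in 9.07% and 8.03% of Alveolar fibroblast and 3.22% and 1.6% of Immune nuclei, and in the summed level of the 9 genes, by log2 1.87 (1.48 to 2.27) and 2.40 (2.10 to 2.70). Of the 9 genes, 2 or more were found in 16.8% and 15.5% of Myofibroblast nuclei and in 20.5% and 6.72% of Pericyte nuclei. The PBS and OVA intervals of the Pericyte share overlapped narrowly (12.0 to 31.6 and 3.12 to 12.4).

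**Figure D2:**
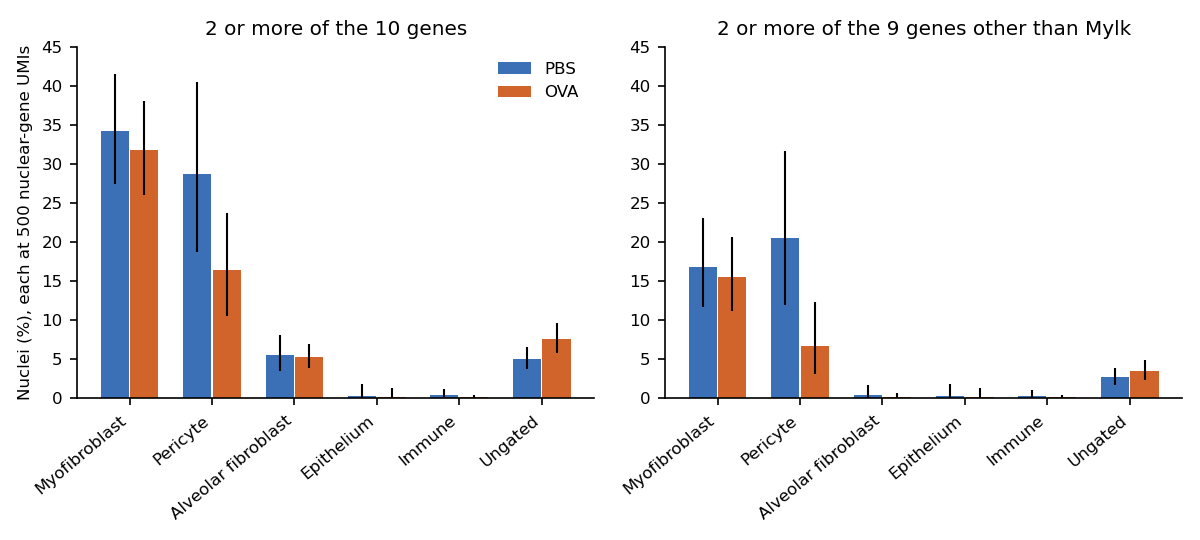
Share of nuclei (%) with 2 or more of the 10 genes (left) or of the 9 genes other than Mylk (right), each nucleus thinned to 500 nuclear-gene UMIs, by gate and library, with bars from 0 and lines for 95% Clopper-Pearson intervals. Alveolar fibroblast nuclei stand at 5.49% (PBS) and 5.32% (OVA) on the left and at 0.477% and 0.113% on the right.

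Among pairs, Tagln and Myh11 were found together often. Of Myofibroblast nuclei with a Tagln UMI, 64.7% (PBS) and 81.2% (OVA) also had a Myh11 UMI, where 36.2% and 52.5% of all Myofibroblast nuclei had one. Of those with a Myh11 UMI, 25.9% and 29.1% had Tagln. Myocd was nearer to its share of the gate: 38.8% and 30.6% of nuclei with a Myh11 UMI had it, against 28.5% and 27.5% of all Myofibroblast nuclei. In Pericyte nuclei with Tagln, Acta2 was found in 53.3% and 76.5%, against 28.4% and 33.3% of the gate. Deeper nuclei hold more genes of any kind, and the part of depth in these pairs was not tested.

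The chromatin at the members' starts, which no gate used, was read in the same nuclei. Counts in peaks within 1 kb of each start were taken per 1000000 counts in all peaks of the nuclei (peak CPM). Summed over the 10 genes, the level was 351 peak CPM in PBS and 307 in OVA Myofibroblast nuclei, 307 and 288 in Pericyte nuclei, 189 and 199 in Alveolar fibroblast nuclei, 119 and 106 in Epithelium nuclei and 43.4 and 48.1 in Immune nuclei. The PBS and OVA sums cover unlike peaks. A peak at the telokin start of Mylk, at 12.6 peak CPM in Myofibroblast nuclei, was in the PBS library only. Myocd had 2 PBS peaks and 1 OVA peak. The log2 ratio of Myofibroblast over Immune was 3.02 (2.85 to 3.19) and 2.67 (2.53 to 2.82). All 10 members were called higher in Myofibroblast than in Immune nuclei in both libraries, where 15.9% (PBS) and 17.1% (OVA) of all genes with enough counts were. The summed level of Epithelium nuclei was above that of Immune nuclei by log2 1.46 (1.27 to 1.64) and 1.14 (0.96 to 1.31), but the members were not all so. Acta2 was below the Immune level in Epithelium nuclei, by -1.34 (-2.26 to -0.52) and -1.91 (-3.00 to -1.01), and Actg2 and Cnn1 held equality in both libraries.

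Against Alveolar fibroblast nuclei the accessibility ratios were smaller than the RNA ratios. Called higher at the start in Myofibroblast nuclei were 4 of 10 PBS members (3.99% of all genes) and 3 of 10 OVA members (3.88%). Myl9, Des and Myocd were called in both libraries and Acta2 in the PBS library. In Pericyte nuclei 3 of 10 (4.1%) and 2 of 10 (5.22%) were called, Acta2, Myl9 and Lmod1 in the PBS library and Des and Myocd in the OVA library. For Myocd the log2 ratio at the start was 1.06 (0.55 to 1.57) and 1.56 (1.00 to 2.13), where that of its RNA was 4.76 and 3.67. For Myh11 it was 0.60 (0.04 to 1.15) and 0.52 (0.06 to 0.96), where that of its RNA was 4.02 and 5.30. Mylk, whose RNA was lower in Myofibroblast than in Alveolar fibroblast nuclei, had accessibility ratios of 0.53 (0.14 to 0.92) and -0.02 (-0.37 to 0.32).

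**Figure D3:**
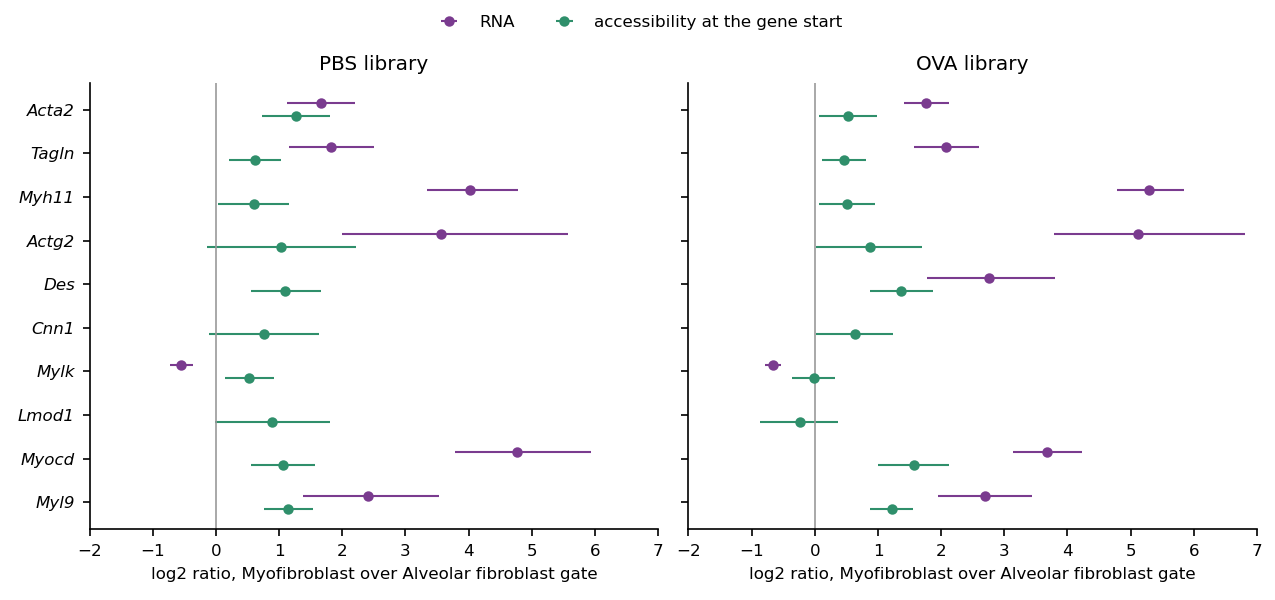
Log2 ratio of the Myofibroblast over the Alveolar fibroblast gate for each gene, for its RNA (genes with at least 20 UMIs over both gates) and for the accessibility at its start, by library, with lines for 95% intervals and a line at equality. The RNA ratio of Myh11 stands at 4.02 (PBS) and 5.30 (OVA) and its accessibility ratio at 0.60 and 0.52, while the RNA ratio of Mylk stands below 0 in both.

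Promoter windows of 300 bases from RefSeq (GRCm38.p6) were at hand for 6 of the 10 members, namely Acta2, Cnn1, Des, Lmod1, Myl9 and Mylk, and were searched on both strands for the CArG box, exactly and with 1 base off beside its core of A and T. An exact match was found in Myl9 only, and 2 matches with 1 base off in Lmod1. The Acta2 window reached only 33 bases before the annotated start of the gene, so that the stretch further upstream was not searched. The Mylk window lay at the internal start 34784921, where neither library had a peak, and the start of the Mylk gene record was not searched. Of all 32851 windows, 1.63% held an exact match and 7.28% an exact match or one so altered. The stretches around these matches are shown because they are the ones among the members that hold the letters, and capitals mark the matches. They are on the plus strand, Lmod1 at chr1:135324574-135324708 and Myl9 at chr2:156775253-156775362.
Lmod1: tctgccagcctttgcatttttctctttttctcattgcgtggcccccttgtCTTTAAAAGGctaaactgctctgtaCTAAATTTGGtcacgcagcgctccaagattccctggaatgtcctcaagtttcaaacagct
Myl9: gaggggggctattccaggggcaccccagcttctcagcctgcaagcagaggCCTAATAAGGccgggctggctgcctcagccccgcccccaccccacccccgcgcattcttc
The Lmod1 matches begin 183 and 158 bases before the annotated start of the gene and the Myl9 match 117 bases before it. A peak covered each stretch in both libraries. Accessibility at the start of Myl9 was 65.7 peak CPM in PBS and 60.5 in OVA Myofibroblast nuclei, 62.9 and 47.1 in Pericyte nuclei, 29.7 and 26.0 in Alveolar fibroblast nuclei and 1.74 and 3.19 in Immune nuclei. At the start of Lmod1 it was 12.1 and 14.1, 19.7 and 18.5, 6.53 and 16.5, and 1.38 and 0.456 in the same order. In Epithelium nuclei the start of Myl9 stood at 16.5 and 17.0 peak CPM. The start of Lmod1 stood at 13.9 and 11.95 there, so it was not open in stromal gates alone. A match says only that these letters lie in the window.

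Within Mylk, peaks away from the start were read for the same gates. The peak at the start of the gene record was open in all gates, at 53.6 and 45.1 peak CPM in PBS and OVA Myofibroblast nuclei, 37.1 and 45.6 in Alveolar fibroblast nuclei and 8.52 and 8.91 in Immune nuclei. The following peaks were picked after their values had been seen. At 95 kb from the start, Alveolar fibroblast nuclei held 29.7 and 31.1 peak CPM and Myofibroblast nuclei 11.04 and 13.1, a log2 ratio of 1.43 (0.74 to 2.18) and 1.24 (0.67 to 1.87). At 19 kb, Alveolar fibroblast nuclei held 57 PBS and 104 OVA counts, and Myofibroblast nuclei 0 and 5. At 176 kb the order was the reverse, with log2 Alveolar fibroblast over Myofibroblast ratios of -0.80 (-1.33 to -0.27) and -0.71 (-1.12 to -0.29).

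Such differences were common among all peaks, and the shares of Mylk peaks rested on 15 and 13 peaks. With at least 20 counts over both gates, 3 of 15 Mylk peaks were called higher in Alveolar fibroblast nuclei, where 15.9% of all peaks were, and 2 of 15 lower, where 9.91% were. In the OVA library the counts were 4 of 13 higher (17.3% of all peaks) and 1 of 13 lower (10.7%). Peaks had been called in each library separately, so a peak of one library can lack a partner in the other. The peak at the telokin start was among the PBS peaks only, at 12.6 peak CPM in Myofibroblast and 4.16 in Alveolar fibroblast nuclei.

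**Figure D4:**
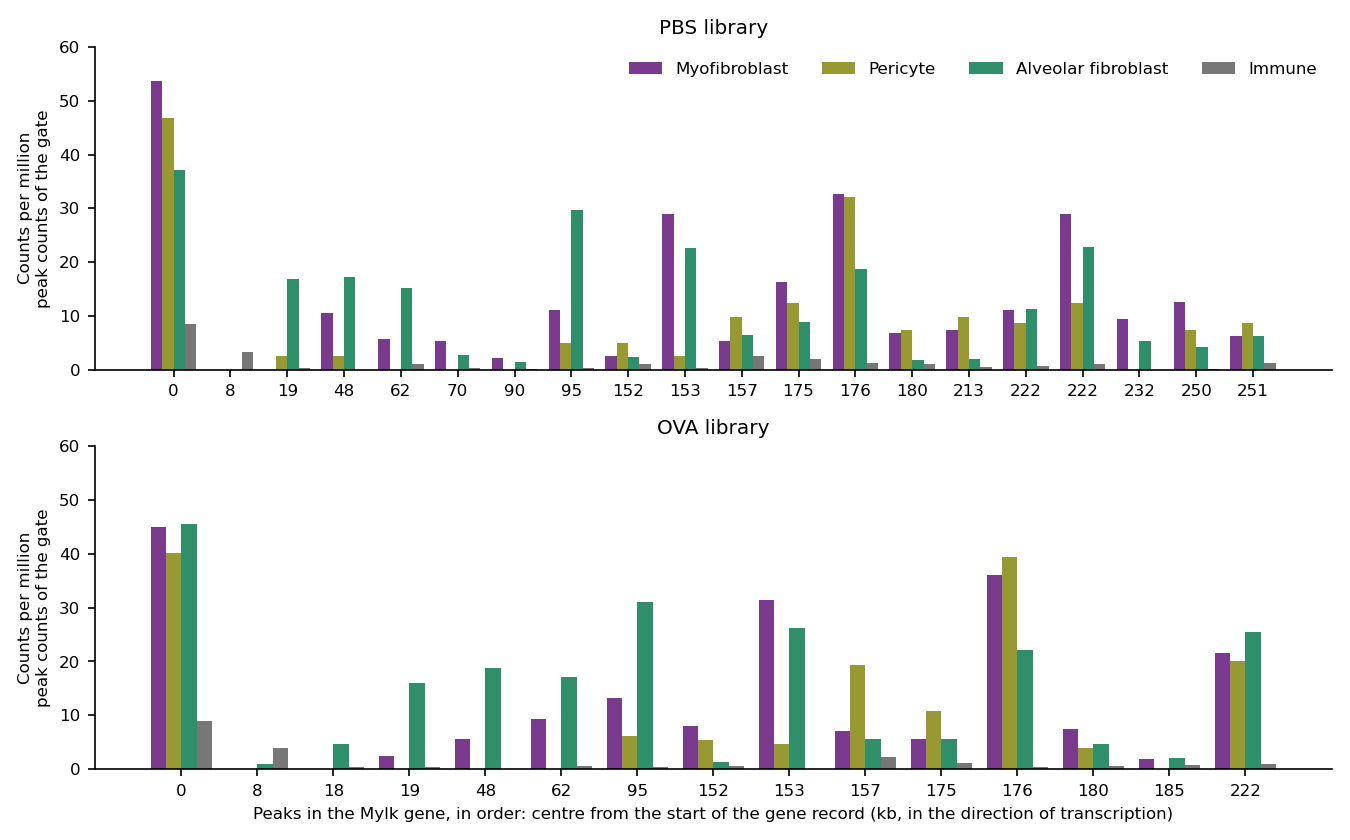
Peak CPM of each gate (counts per 1000000 peak counts of the gate) in every peak within the Mylk gene, in order along the gene (ordinal axis, labelled by the distance of the peak's centre from the start of the gene record in kb), for 4 gates in the PBS (top) and OVA (bottom) libraries. The Alveolar fibroblast bars are the tallest at 19, 48, 62 and 95 kb in both libraries, and the Myofibroblast and Pericyte bars are the taller at 176 kb.

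Other genes of the contractile apparatus were read from 5 lists. Of the 17 genes of thin filament and linker proteins, 16 had enough UMIs in each library, of which 6 PBS and 8 OVA genes were higher in Myofibroblast than in Alveolar fibroblast nuclei and 1 was lower in each. Of all genes, 10.5% and 9.57% were higher and 8.06% and 7.62% lower in this comparison. Pdlim3, a linker at the Z-line and dense bodies, had the highest log2 ratio, 6.37 (4.47 to 9.45) and 6.54 (5.28 to 8.19), and Synpo2, an actin-bundling protein, had 3.47 and 4.31. The LIM proteins Fhl2 and Fhl1 were opposed: Fhl2 had 3.41 and 4.48, and Fhl1 had -2.38 (-2.74 to -2.03) and -2.33 (-2.59 to -2.08). Over the Alveolar fibroblast gate, Pericyte nuclei were higher in 5 of 13 and 6 of 14 of these genes and lower in 3 and 3, where 10.1% and 11.8% of all genes were higher and 11% and 9.08% lower.

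Light chain phosphorylation genes gave no higher call in Myofibroblast nuclei. Of 10 tested, none was higher than in Alveolar fibroblast nuclei and 1 was lower in each library, Ppp1r14a, an inhibitor of myosin phosphatase, with log2 ratios of -1.78 (-2.53 to -1.11) and -1.40 (-1.91 to -0.93). A share of 1 in 10 is near that of all genes called lower (8.06% and 7.62%). In Pericyte nuclei 4 of 10 and 2 of 10 were higher (10.1% and 11.8% of all genes), among them Cacna1c, a pore subunit of the L-type calcium channel, at 1.499 (1.26 to 1.74) and 1.63 (1.49 to 1.78). Of the 10, 1 was lower in each library, Itpr1, a calcium release channel, at -1.32 and -1.42 (11% and 9.08% of all genes lower).

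In the list of serum response factor and genes set beside it as partners, Foxf1 and Mef2c were higher in Myofibroblast nuclei in both libraries. They were 2 of 7 and 2 of 8 tested (10.5% and 9.57% of all genes). Their log2 ratios were 1.54 and 2.42 for Foxf1 and 1.51 and 2.59 for Mef2c. Pericyte nuclei were higher in 3 of 7 and 4 of 8 (10.1% and 11.8% of all genes), Mef2c at 2.98 and 2.90. Of the receptors of contraction and relaxation, 1 of 4 PBS and 2 of 5 OVA genes tested were higher in Myofibroblast nuclei (10.5% and 9.57% of all genes). Lower were 1 and 0 (8.06% and 7.62%), and the median log2 ratio was -0.05 and -0.57. In Pericyte nuclei 3 of 4 and 3 of 6 were higher (10.1% and 11.8%) and 0 lower (11% and 9.08%). The endothelin receptor gene Ednrb was at 603 and 769 CPM in Myofibroblast nuclei against 44.7 and 59.9 in Alveolar fibroblast nuclei. Its log2 ratios were 3.75 (3.24 to 4.31) and 3.68 (3.39 to 3.98). The angiotensin receptor gene Agtr1a gave 22 PBS and 35 OVA UMIs in Pericyte nuclei and 3 and 0 in the far larger Alveolar fibroblast gate, and the thrombin receptor gene F2r was higher in Pericyte nuclei at 2.84 and 2.95. Of 4 other actin genes 2 had enough UMIs, and neither was called between Myofibroblast and Alveolar fibroblast nuclei in either library. Their ratios were under 2-fold, and some of the intervals left out equality.

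Genes that were neither members nor gate markers were ranked by likeness of their profile to the mean of the members. The measure was Pearson's r of log2(CPM + 10) over 10 sums, the 5 gates of each library, which share libraries and depth. The 10 highest were Ltbp2 (r = 0.99), Kcnn2, Kcnk3, Hpse2, Ckb, Dock6, H2afy2, Smtn, Mark1 and P3h3 (0.98), of which Smtn is also in the list of thin filament proteins. Ltbp2, a latent TGF-beta binding protein, stood at 382 and 446 CPM in Myofibroblast, 328 and 216.5 in Pericyte, 42.2 and 47.1 in Alveolar fibroblast and 8.90 and 6.28 in Immune nuclei. Against the mean of the other 9 members, r was 0.99 for Tagln, 0.98 for Acta2, 0.97 for Myh11, 0.68 for Mylk and 0.52 for Cnn1, which had 7 UMIs in all.

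Between the libraries, most members were within counting error in each stromal gate. In Myofibroblast nuclei 0 of 8 members with enough UMIs were called higher in the OVA library, where 5.05% of all genes were, and 0 of 8 lower, where 1.4% were. Myh11 was higher by log2 0.64 (0.35 to 0.94), with 137 PBS and 324 OVA UMIs, and by 0.46 (0.17 to 0.76) when UMIs of mitochondrial genes were left out of the total (nuclear-gene UMIs). Mylk was higher by 0.27 (0.07 to 0.47) over all UMIs, was at 0.09 (-0.11 to 0.30) over nuclear-gene UMIs, and was at -0.0087 where only nuclei with at most 20% mitochondrial UMIs were taken. Myocd was at -0.38 (-0.77 to 0.01) and -0.56 (-0.95 to -0.17). The median of all genes tested lay at 0.23 on the same scale, and mitochondrial genes took 27.7% of PBS and 18.2% of OVA UMIs of the gate.

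In Pericyte nuclei Myocd and Myh11 were lower in the OVA library beyond counting error, and the other 6 members with enough UMIs were within it, Mylk (0.14) and Myl9 (0.49) with ratios above 0. The median of all genes lay at 0.30. Mitochondrial genes took 29.9% of PBS and 20.0% of OVA UMIs of this gate. Of 8 members, 0 were called higher, where 8.2% of all genes were, and 1 lower, where 1.38% were. The member called was Myocd, at 167 CPM (29 UMIs in 17 of 102 PBS nuclei) and 43.9 CPM (15 UMIs in 11 of 144 OVA nuclei), a log2 ratio of -1.93 (-2.93 to -0.98). Its value moved with the choice of nuclei, to -0.66 (-1.59 to 0.29) where gates were smoothed over neighbouring nuclei and to -3.02 (-4.45 to -1.71) where nuclei with over 20% mitochondrial UMIs were left out. Myh11 was at -0.51 (-0.96 to -0.06), and the sum of the 9 genes without Mylk at -0.45 (-0.69 to -0.21), or -0.64 (-0.88 to -0.40) over nuclear-gene UMIs. Acta2 (-0.32, -0.77 to 0.13), Tagln (-0.76, -1.58 to 0.07) and Myl9 (0.49, -0.25 to 1.29) held equality in their intervals over all UMIs, and over nuclear-gene UMIs Acta2 (-0.51, -0.96 to -0.06) and Tagln (-0.95, -1.77 to -0.12) did not.

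In Alveolar fibroblast nuclei Mylk was higher in the OVA library by log2 0.38 (0.28 to 0.47), or 0.22 (0.12 to 0.31) over nuclear-gene UMIs, and under the 2-fold that a call needs. There 0 of 7 members were called higher (2.88% of all genes) and 0 of 7 lower (1.45%), and the median of all genes was 0.17. The sum of the other 9 genes was at -0.17 (-0.46 to 0.13) over all UMIs and at -0.33 (-0.62 to -0.03) over nuclear-gene UMIs. Among list genes in Pericyte nuclei, 2 of 13 thin filament genes, Csrp1 (1.02, 0.16 to 1.98) and Pdlim7 (1.12, 0.15 to 2.22), and 1 of 4 receptor genes, Ednrb (1.22, 0.45 to 2.07), were called higher in the OVA library, where 8.2% of all genes were. In Myofibroblast nuclei 1 of 6 genes of the serum response factor list was, Tgfb1i1 (1.03, 0.01 to 2.16), where 5.05% of all genes were. Csrp1, Pdlim7 and Tgfb1i1 lay over the 2-fold limit by less than the ratios of these gates fell when nuclear-gene UMIs were the denominator, so that their calls are lost there.

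**Figure D5:**
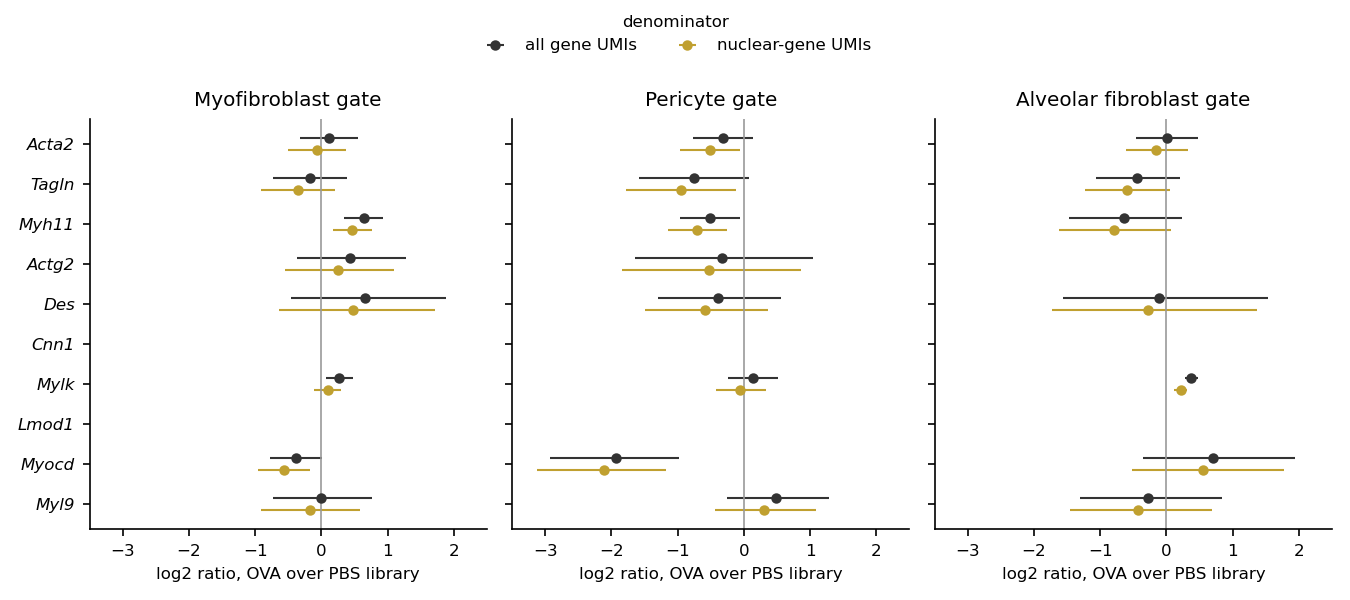
Log2 ratio of the OVA over the PBS library for each member with at least 20 UMIs over both libraries in the gate, with both denominators (all genes, or nuclear genes alone), in 3 stromal gates, with lines for 95% intervals. Myocd in the Pericyte gate stands lowest at -1.93, and Myh11 stands at 0.64 in the Myofibroblast gate and at -0.51 in the Pericyte gate.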

How the data were processed

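Nuclei of 2 pooled fetal lung libraries, 1 per group, had been read by 10x Multiome. The deposited matrices hold counts per nucleus, UMIs for 32285 gene features and transposition counts for 134977 (PBS) and 120379 (OVA) peaks, which the authors made with Cell Ranger ARC 2.0.1 (submitters' processing notes) on mm10. Totals were 11473351 PBS and 13774959 OVA gene UMIs.

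Nuclei with under 200 genes or over 60% mitochondrial UMIs were left out, and 293 PBS and 250 OVA doublet calls were removed (nearest-neighbour score against 2 simulated doublets per nucleus, 30 neighbours, 0.8% per 1000 barcodes, after 3000 variable genes and 30 components). A nucleus entered 1 of 10 gates, each of up to 6 markers, when it had UMIs of at least 2 of its markers and more than of any other gate; 115 PBS and 153 OVA nuclei tied, and 681 and 846 gated nuclei were 1 marker ahead. Of the barcodes shared by the libraries, 30 were among kept nuclei. No cell annotation by the authors was used here, so gates can differ from the study's cell types.

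With 1 library per group no test was possible. CPM carry exact Poisson intervals, shares Clopper-Pearson intervals and log2 ratios exact conditional binomial intervals, all at 95% and for counting error only, and a count of 0 allows 3 counts. Ratios were taken over all features with at least 20 UMIs, and a call needed a 2-fold difference and an interval without equality. The ratios and calls were tested on gene counts simulated for the Myofibroblast gate with counting error only. Gene starts came from GENCODE M21 and promoter windows (250 bases before and 50 after a start) from RefSeq. All members were named, with up to 4 called genes per list and the 10 genes of most like profile. A result for 1 gene of the lists is not reported here. The members and lists were chosen with earlier results of these data known. Alternatives changed the denominator, marker minimum, gate smoothing over 15 neighbours, mitochondrial and count filters, doublet removal, thinning, start window and UMI minimum. Python 3.11.15, NumPy 2.4.6, SciPy 1.17.1, pandas 2.3.3, scikit-learn 1.9.0 and matplotlib 3.10.9 were used.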

Additional observations from a re-analysis of the deposited data

Results flagged for a closer look

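The OVA over PBS difference of Myh11 pointed in opposite directions in the contractile gates. Its log2 ratio was 0.64 (0.35 to 0.94) in Myofibroblast nuclei, from 137 PBS and 324 OVA UMIs, and -0.51 (-0.96 to -0.06) in Pericyte nuclei, from 74 and 102 UMIs. With 1 library in each group, the difference between the gates was not tested. Where only nuclei with at most 20% mitochondrial UMIs were taken, the Myofibroblast ratio was 0.33 (-0.11 to 0.79).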

How the results depend on the processing

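No paired analysis was possible because PBS and OVA are single libraries. Values are given as PBS and OVA in the order Myofibroblast, Pericyte, Alveolar fibroblast. Among summary values, 84 recomputed ones stayed within the spread allowed, 89 moved and 1 reversed, and among single genes 146 stayed, 14 moved and 1 reversed.

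The sum of the 10 genes moved over nuclear-gene UMIs to 3027 and 3136, 2782 and 2013, and 2106 and 2360 CPM. It was 2364 and 2722 in Myofibroblast and 1662 in PBS Alveolar fibroblast nuclei with at least 3 markers. With at most 20% mitochondrial UMIs it was 2547 in PBS Myofibroblast, 2170 and 1848 in Pericyte and 1722 in PBS Alveolar fibroblast nuclei. As a mean over single nuclei it was 1709 and 1460 in Pericyte nuclei. Without Mylk, a choice made after seeing the data, it was 1253 and 1436, 1450 and 1059, and 172.5 and 153.5.

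Its log2 ratio over the Immune gate kept its direction under all alternatives run. It was 4.22 and 5.20, 4.10 and 4.56, and 3.70 and 4.79 over nuclear-gene UMIs. With at most 20% mitochondrial UMIs it was 3.09 and 4.27, 2.86 and 3.74, and 2.52 and 3.84. With doublet calls kept it was 3.90 and 4.63, 3.68 and 3.93, and 3.41 and 4.18. With neighbour-smoothed gates it was 5.73 and 6.14, 5.37 and 5.42, and 5.15 and 5.71. As a mean over single nuclei it was 5.04 in PBS Myofibroblast and 4.52 in PBS Alveolar fibroblast nuclei. Without Mylk it was 4.94 and 5.18 in Pericyte and 1.87 and 2.40 in Alveolar fibroblast nuclei.

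The log2 OVA over PBS ratio of the sum was 0.051 in Myofibroblast and 0.16 in Alveolar fibroblast nuclei over nuclear-gene UMIs, and 0.063 and 0.20 with at most 20% mitochondrial UMIs. Without Mylk the Alveolar fibroblast ratio reversed to -0.17, and with at most 20% mitochondrial UMIs that of Mylk in Myofibroblast nuclei reversed to -0.0087. The cause was not tested. Of all genes, 271, 321 and 259 were called higher and 75, 54 and 130 lower in the OVA library. With at least 100 UMIs these were 49, 50 and 72 higher and 2, 4 and 11 lower, and over nuclear-gene UMIs 116, 182 and 145 higher and 126, 85 and 209 lower.

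Nuclei with 2 or more members were 54.0% and 65.9%, 45.1% and 46.5%, and 13.3% and 23.6% without thinning. Thinned to 300 UMIs they were 17.7% and 16.1%, 14.3% (PBS), and 3.42% and 2.10%. The log2 ratio of start accessibility over Immune was 2.54 and 2.34, 2.41 and 2.30, and 1.83 and 1.88 for peaks within 5 kb. With doublet calls kept it was 2.68 (PBS), 2.51 (PBS), and 1.82 and 1.89, and 2.37 in PBS Alveolar fibroblast nuclei with at least 3 markers. Few UMIs limited Cnn1, Lmod1 and the 14 and 11 Ctnna3/Ntrk3 nuclei most.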

Other observations

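Within the Myofibroblast gate, nuclei were compared by a UMI of Lgr6, a receptor of R-spondins, as a description of 92 PBS and 104 OVA nuclei with it. Actg2 stood at 26.5 CPM in PBS nuclei with Lgr6 and 84.7 in those without, a log2 ratio of -1.68 (-3.72 to -0.05). In OVA nuclei it stood at 134.8 and 37.5 CPM, a ratio of 1.85 (0.81 to 2.99), so the libraries were opposed, with 4 and 16 PBS and 30 and 11 OVA UMIs. The sum of the 9 genes without Mylk was within counting error in PBS nuclei (0.16, -0.12 to 0.44) and higher with Lgr6 in OVA nuclei (0.60, 0.39 to 0.81). Myocd was higher with Lgr6 in PBS nuclei (0.80, 0.21 to 1.40), and its OVA interval held equality (0.50, -0.05 to 1.04). Nuclei with Lgr6 were deeper, with medians of 1307 and 1106 PBS and 1810 and 1593 OVA UMIs, and the part of depth was not tested. The same nuclei were also split by Pdgfra and by Wnt5a. With Pdgfra, Actg2 had log2 ratios of -1.91 (-3.36 to -0.51) and -0.98 (-1.99 to 0.13), and with Wnt5a its ratios were within counting error in both libraries.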
